A study of Haliotis discus hannai with 24 samples.

Results

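The 150 genes described here had a higher median transcript level in the epipodial tentacle of the Pacific abalone Haliotis discus hannai than in either of the sensory organs of its head. They were chosen from read counts. The level of a gene in a library was its count per 1000000 counts of that library (CPM), and the level in an organ was the median CPM over the organ's 8 libraries. A gene was taken when its epipodial median was at least 20 CPM and when that median exceeded the higher of the eyestalk and cephalic tentacle medians at least 4-fold, with 1 CPM added to both medians before the ratio was formed. Of 19700 genes listed, 17233 had at least 1 count, 2865 had an epipodial median of at least 20 CPM and 162 passed both conditions. The 150 with the largest ratio are called members below. Because the ratio chose them, all statements that set the epipodial tentacle against the head describe the choice and carry no test.

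Abalones are marine snails. The eyestalk carries the eye on each side of the head, and the cephalic tentacle beside it serves touch and chemical sense. The epipodium is a fringe of skin and muscle around the foot, and the many epipodial tentacles on it are touch- and chemosensory appendages that extend beyond the rim of the shell. Eyestalk and cephalic tentacle are thus head organs, and the epipodial tentacle is an organ of the foot.

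Polyadenylated RNA was sequenced from the left and the right organ of each kind, with 4 libraries in each of 6 groups and 24 in all. Every sample was labelled as an aquaculture animal with the organ excised, all carried the same batch value, and the labels give no other treatment, age or sex. The sources used here do not say how many animals were used or whether a replicate number stands for an animal, and the p-values below speak only to the spread among these libraries. The epipodial labels conflict with each other: the side used here is the one in the tissue label, whereas the letter in the title is the one that marks the opposite side in the head organs. For the libraries labelled left epipodial tentacle the treatment label also names the left cephalic tentacle. Any left-right direction in the epipodial tentacle depends on the tissue label.

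Gene identifiers come without names in the files used here, and no annotation was used. The roles of the members, their pathways and the marker genes of cell types could therefore not be given, and the organ labels could not be set against known markers. Members are identified by number only where a rule or a stated pattern singled them out, and the rest are given by counts and ranges. How reads from overlapping genes or near-identical copies were counted is not given either, so levels of such genes are uncertain. In these bulk samples, fewer cells of a type and less RNA per cell cannot be told apart.

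The head libraries did not all stand alike. The total count was 1700095 to 2146464 in the 8 epipodial libraries, with 8876 to 10678 genes detected. Among the 16 head libraries the total was 473072 to 4479096 and 3682 to 11197 genes were detected. In 8 head libraries either fewer than 6000 genes were detected or a single gene held over 20% of the counts. These were left eyestalk replicates 2 and 3, right eyestalk replicates 1 and 2, left cephalic tentacle replicates 1 and 2, and right cephalic tentacle replicates 3 and 4. They are called sparse below, also right eyestalk replicate 2, in which 8371 genes were detected but 1 gene held 70.8% of the counts. The remaining 8 head libraries, 2 in each head group, had 7622 to 11197 genes detected and are called the fuller head libraries below.

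These 8 sparse libraries bear on the choice of the members. Between 147 and 149 of the 150 members had a count in each epipodial library, 123 to 144 in each fuller head library and 53 to 114 in each sparse one. The median CPM over the members was 39.7 to 114 in the epipodial libraries, 6.12 to 27.8 in the fuller head libraries and 0 to 2.62 in the sparse ones. The 2865 genes that reached the members' minimum level were also lower in the sparse libraries, with a median CPM of 11.2 to 40.4, against 34.8 to 72.5 in the fuller head libraries and 42.5 to 67.6 in the epipodial ones. The median over the members was thus lower in each fuller head library than in each epipodial one, and lowest in the sparse libraries. The fuller libraries entered the choice as well, so their low median describes the choice and does not hold for every member. What part sparse detection had in the choice was not tested.

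**Figure D1:**
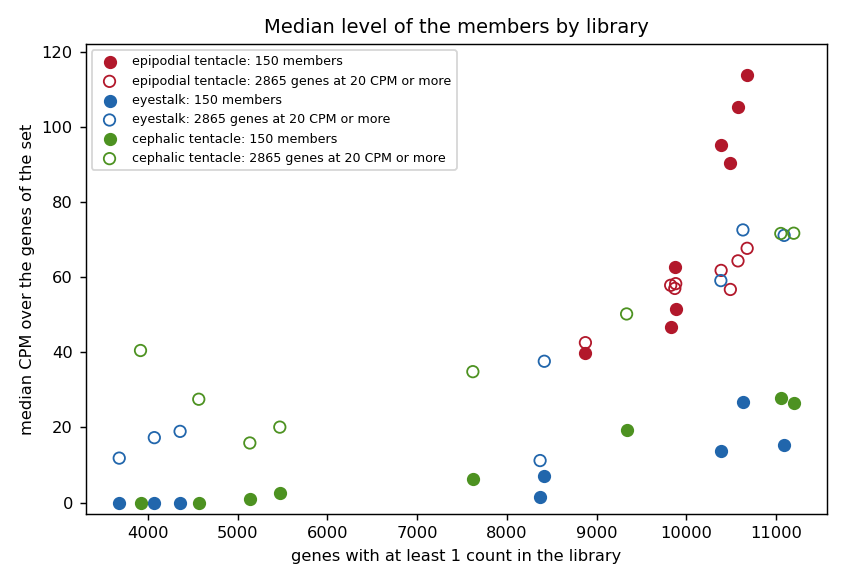
Median level (CPM) over the 150 members (filled circles) and over the 2865 genes with an epipodial median of at least 20 CPM (open circles), against the number of genes detected, with 1 filled and 1 open circle per library. The filled circles of the 8 epipodial libraries lie between 39.7 and 114 CPM, and those of the 16 head libraries lie at or below 27.8 CPM and fall to 0 where few genes were detected.

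When the sparse libraries were left out and the ratio was formed again, 57 genes passed and 53 of these were members, 35.3% of the 150. The median log2 ratio of the members was 2.74 with all libraries and 1.47 without the sparse ones, where it ranged from -1.53 to 6.35. Among the 97 members that no longer passed, 35 were 2- to 4-fold higher in the epipodial tentacle and 62 were under 2-fold, and 35 of these 62 were no higher in the epipodial tentacle than in the head. The ratio of the 2865 genes moved as well, from a median log2 of 0.41 to -0.29. Relative to that median the members stood 2.32 higher on the log2 scale with all libraries and 1.76 higher without the sparse ones. Of the 75 members with the largest ratios 44 passed without the sparse libraries, and of the other 75 only 9 did.

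**Figure D2:**
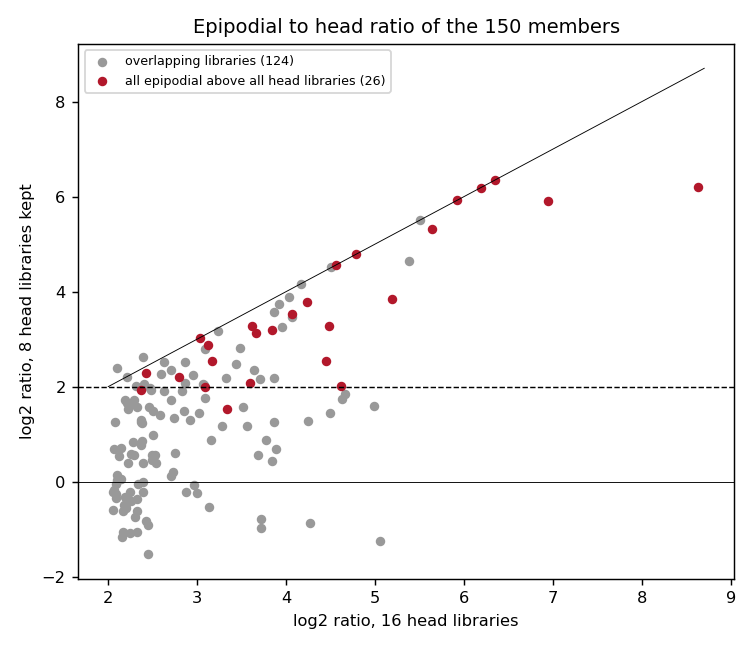
Log2 ratio of the epipodial median to the higher head median for each of the 150 members, from all 16 head libraries (x axis) and from the 8 fuller head libraries (y axis). The dashed line marks the 4-fold threshold, above which 53 members lie, and the thin diagonal marks equal ratios. Red points are the 26 members whose 8 epipodial libraries were all above all 16 head libraries.

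Across the 6 groups the members formed a block of high values in the epipodial tentacle, as the choice required, and a patchwork in the head. The median over the members of the group median was 76.0 CPM in the left and 78.0 CPM in the right epipodial tentacle. It was 10.2 CPM in the left and 4.49 CPM in the right eyestalk, and 10.9 CPM in the left and 5.49 CPM in the right cephalic tentacle. The highest group median was in the right epipodial tentacle for 94 members and in the left for 54. It was in the left eyestalk for 2, HDSC06269CG00010 and HDSC32840CG00010, both described below. Over genes at the members' minimum level, the median group median was 53.8 CPM in the left and 60.6 CPM in the right epipodial tentacle. In the edgeR fit described below, 83 members were higher on the left and 67 on the right. The majority for the right was thus not kept in that fit, and no left-right direction is read from it. A count in all 4 libraries of the group was found for 146 members in the left and 144 in the right epipodial tentacle, but for only 37 to 44 in the head groups. Depending on the head group, 28 to 51 members had a group median of at least 20 CPM there.

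**Figure D3:**
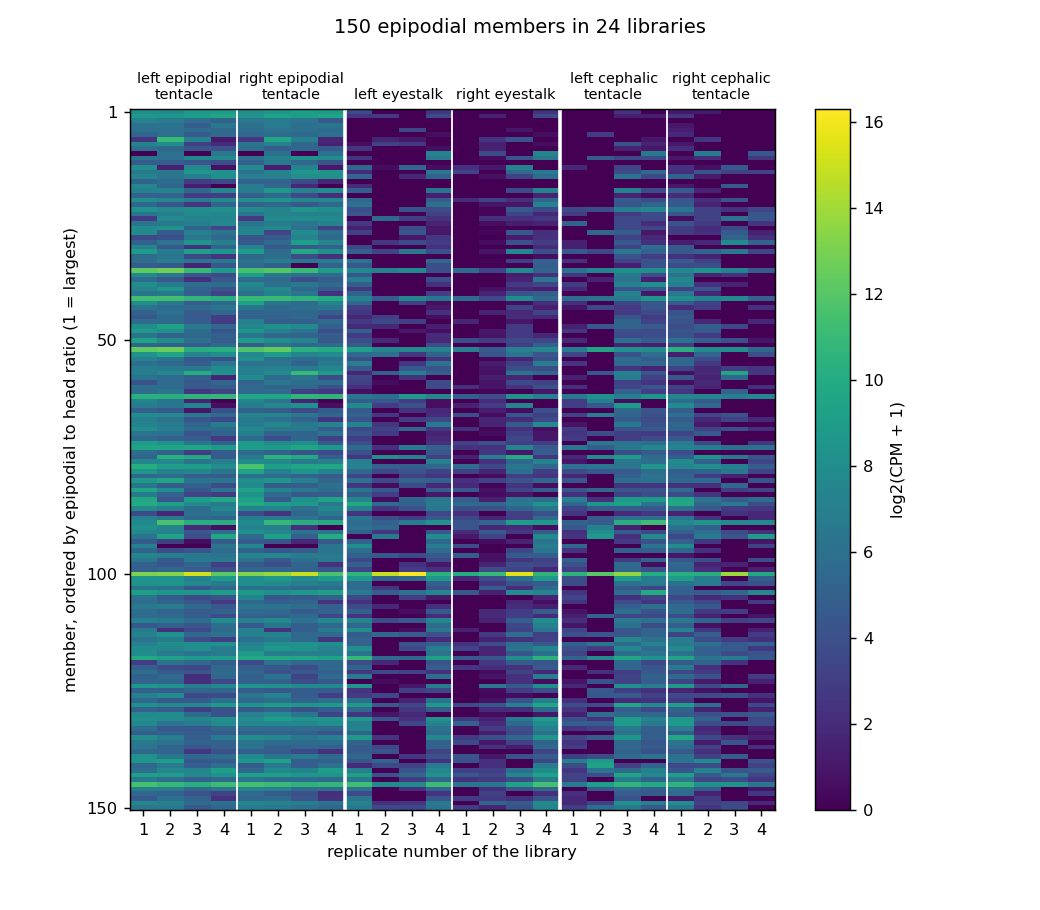
Level of the 150 members (rows, ordered by their epipodial to head ratio from largest at the top to smallest at the bottom) in the 24 libraries (columns, by group and replicate number), coloured by log2(CPM + 1). The 8 epipodial columns on the left are filled nearly throughout, whereas dark cells in the head columns concentrate in the 8 sparse libraries and in the upper rows.

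The members covered a wide range of levels. Their epipodial median ran from 20.3 to 9941 CPM, with a median over the members of 77.7 CPM. It was over 1000 CPM for 7 members, over 100 CPM for 61 and under 50 CPM for 55. Per length, in the deposited FPKM values, which divide a count by gene length and library total, the epipodial median ran from 9.003 to 20973, with a median of 114. The ratio was at least 16-fold for 27 members and at least 8-fold for 63. Together the members held 2.72% to 6.24% of all counts in the epipodial libraries and 0.200% to 8.35% in the head libraries. The share in left eyestalk replicate 3, 8.35%, was above that of every epipodial library, and right eyestalk replicate 3 followed in the head at 5.43%. Without the single most abundant member, the members held 2.34% to 4.56% in the epipodial libraries and 0.0901% to 1.53% in the head libraries.

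HDSC00168CG00020 had the largest ratio. Its level was 274, 238, 404 and 454 CPM in left epipodial replicates 1 to 4 and 270.0, 385, 545 and 465 CPM in the right ones. In the head it was detected in 3 of 8 eyestalk and 3 of 8 cephalic libraries, and its highest head value was 10.9 CPM, in left eyestalk replicate 1. The lowest epipodial library thus stood above every head library. The head medians were 0, and the log2 ratio was 8.63, or 6.21 without the sparse libraries. HDSC03928CG00010 followed with a log2 ratio of 6.94, which was 5.90 without the sparse libraries. Its level was 409, 397, 560.4 and 773 CPM in the left and 303, 671, 537 and 778 CPM in the right epipodial tentacle, and its 16 head values ran from 0 to 11.8 CPM. The groups did not overlap for this member either.

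HDSC06269CG00010 was the most abundant member per length, with an epipodial median of 20973 FPKM, and it also had the highest level in the head. In CPM it was 8560, 10219, 38930 and 4573 in the left and 9663, 13911, 32364 and 3083 in the right epipodial tentacle. In the left eyestalk it was 1649, 29978, 80728 and 1420, and in the right eyestalk 1091, 2130, 47746 and 1570. In the left cephalic tentacle it was 1493, 4374, 12732 and 1085, and in the right 1269, 1248, 14520 and 976. Replicate 3 was the highest library in each of the 6 groups. The organs overlapped widely, and the highest of all 24 values was in the left eyestalk, so that the enrichment rests on the medians, with a log2 ratio of 2.39 that was 2.63 without the sparse libraries.

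HDSC16768CG00010 was the second most abundant per length, with an epipodial median of 9582 FPKM. Its level was 5001, 6494, 1136 and 1221 CPM in the left and 3658, 5418, 1286 and 1062 CPM in the right epipodial tentacle. It had a count in every head library, at 24.1 to 1320 CPM, and only right cephalic replicate 1 reached the range of the epipodial tentacle. Both sides were high in replicates 1 and 2 and low in replicates 3 and 4. HDSC00628CG00070 had the second highest head level, with an eyestalk median of 453 CPM, a cephalic median of 468 CPM and an epipodial median of 1989.8 CPM. Its epipodial libraries held 1248 to 3061 CPM, and its head libraries spread from 81.8 to 2942 CPM, overlapping them. Its log2 ratio was 2.08 with all libraries and -0.27 without the sparse ones.

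Only 3 of the 150 members, 2%, were silent in both head organs, that is, without a count in any of the 16 head libraries. Among the 2865 genes at the members' minimum level the share was 0.105%, and these were the same 3 genes, since a gene at this level with no head count passes the choice by construction. The head libraries together held 28545247 counts and the epipodial libraries 15681049. A floor of 3 counts over the 16 head libraries corresponds to 0.105 CPM and covers counting error only. The sparse libraries are part of the head total, and the same floor over the fuller ones alone would be higher. Folds against this floor and the pooled ratio given below leave out the spread between libraries and the choice of the members.

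HDSC01786CG00010 was the most abundant silent member. Its level was 134, 111, 54.8 and 37.6 CPM in the left and 87.8, 100.03, 73.1 and 22.9 CPM in the right epipodial tentacle, 1252 counts in all. Its pooled level was 760-fold above the floor. HDSC02471CG00020 had 550 counts, with 25.6, 27.6, 18.4 and 14.0 CPM in the left and 31.8, 104, 39.8 and 18.2 CPM in the right epipodial tentacle. Its pooled level was 334-fold above the floor. HDSC00491CG00020, the remaining silent member, had 381 counts. It was at 35.4, 53.9, 6.14 and 10.1 CPM in the left and 33.8, 34.2, 11.3 and 2.35 CPM in the right epipodial tentacle. Its pooled level was 231-fold above the floor. All of these members were detected in each of the 8 epipodial libraries, and each had its lowest value in replicate 4 or, for HDSC00491CG00020 on the left side, in replicate 3.

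**Figure D4:**
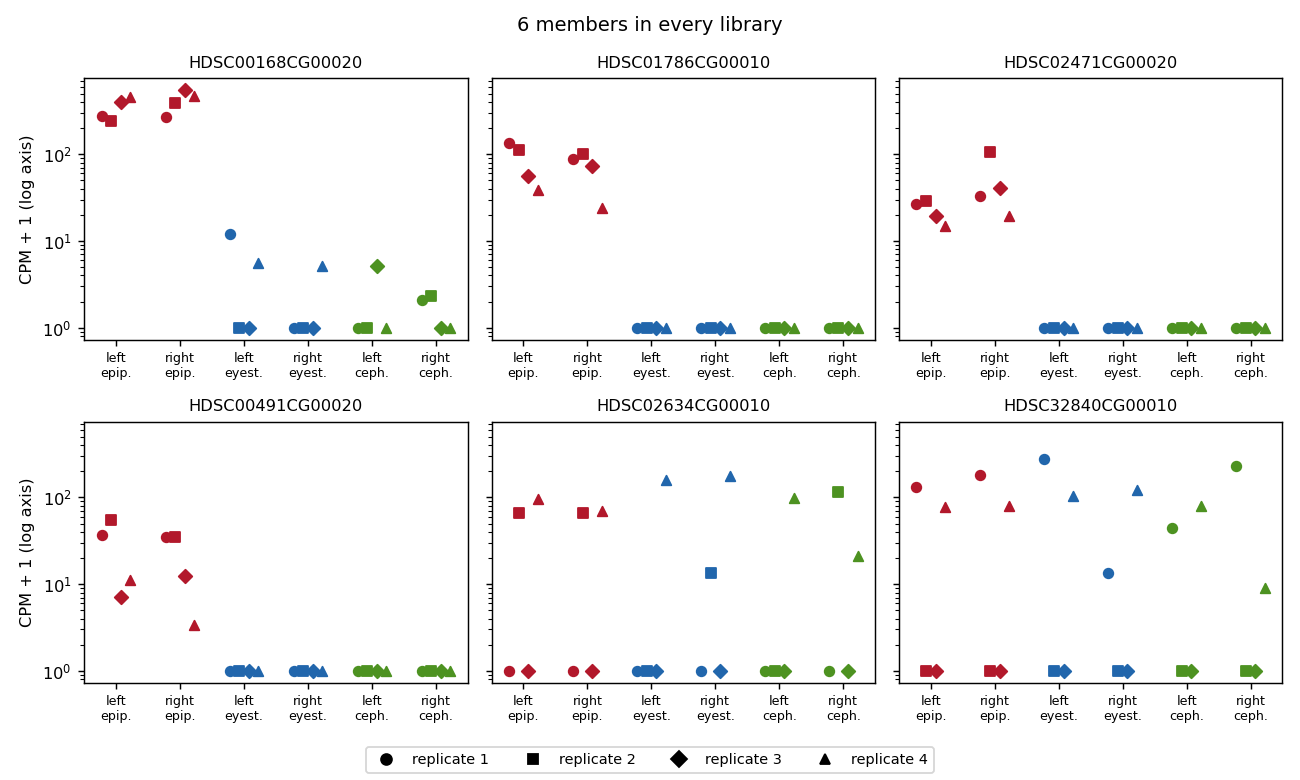
CPM + 1 (log axis) of 6 members in every library, by group, with the replicate number as the marker shape: the member with the largest ratio, the 3 silent members and 2 members that followed the replicate number. The silent members lie at 1, that is 0 CPM, in all 16 head libraries, and the last 2 members lie there in all groups for 1 or more replicate numbers.

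Apart from the silent members, 1 member had 3 head counts or fewer. HDSC00168CG00070 had 2 head counts, both in right cephalic replicate 1, against 1113 epipodial counts, a pooled ratio of 1013. The interval of this ratio ran from 280 to 8375, since it rests on 2 head counts. It is not on the same footing as the folds of the silent members, which are against the floor. A median of 0 in both head organs was found for 11 members, the 3 silent ones among them, whose highest head library ranged from 0 to 176 CPM. The median was 0 in the eyestalk for 19 members and in the cephalic tentacle for 21, and no count at all was found in the eyestalk for the 3 silent members and HDSC00168CG00070, and in the cephalic tentacle for the 3 silent members. At the other end, 16 members had a count in all 16 head libraries and 93 in all 8 fuller ones.

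In 26 members, 17.3%, all 8 epipodial libraries stood above all 16 head libraries. Over all 17233 genes with a count this share was 0.232%, but members were chosen on the same values and nothing is read from the difference. Against the 8 fuller head libraries alone it held for 31 members, 20.7%, with 0.325% over all genes. The 26 members had a median log2 ratio of 4.15, against 2.50 in the other 124, and 23 of the 26 passed the choice without the sparse libraries. They ran from 21.3 to 2569 CPM in epipodial median. Between the epipodial libraries they had a median coefficient of variation of 35.0%, against 63.9% in the other 124, and their epipodial minimum was part of the criterion.

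In the other 124 members single head libraries reached the epipodial range. The highest head library exceeded the epipodial median in 72 members. Among the 147 members with a head count, it was a sparse library for 27, a cephalic library for 88 and an eyestalk library for 59. Left eyestalk replicate 1 and left cephalic replicate 3 were each the highest for 25 members. By organ medians, 83 members were higher in the cephalic tentacle, 56 in the eyestalk and 11 equal in both. Without the sparse libraries these counts were 83, 61 and 6. Within a replicate number, both epipodial libraries stood above the 4 head libraries of that number in all 4 numbers for 53 members, in 3 numbers for 25, in 2 for 37, in 1 for 32 and in none for 3, which were HDSC02634CG00010, HDSC08026CG00020 and HDSC32840CG00010.

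The members at the edge of the choice had a different profile from those at its top. The 2 last members were HDSC01450CG00050 and HDSC00681CG00030, with log2 ratios of 2.06 and 2.05. Just outside stood HDSC00531CG00110 and HDSC00432CG00010, both at 2.05, which passed both conditions but not the limit of 150. HDSC01450CG00050 was at 189, 135, 52.5 and 68.5 CPM in the left and 196, 148, 126 and 72.9 CPM in the right epipodial tentacle. In the head it was at 110.4 to 297 CPM in 6 of the 8 fuller libraries and at 38.0 CPM or less in the 8 sparse ones, so that the organs overlapped fully. HDSC00681CG00030 was at 22.2 to 93.7 CPM in the left and 44.1 to 105 CPM in the right epipodial tentacle, and reached 167 CPM in right eyestalk replicate 4. Without the sparse libraries their log2 ratios were -0.59 and -0.22.

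Some members carried related identifiers. The first part of an identifier was shared by 18 of the 150 members, in 8 sets, and 12 of the 11175 possible pairs of members, 0.107%, shared it, against 0.0297% of pairs among the 2865 genes. The sources do not say what the first part stands for, so nothing can be said of their position. The sets singled out here were chosen after their values were seen. In HDSC00168, 3 of the 4 listed genes were members, at log2 ratios of 8.63, 6.19 and 5.64. HDSC00168CG00030, the member with the ratio of 5.64, was at 39.6, 60.0, 25.5 and 46.0 CPM in the left and 49.5, 53.6, 48.4 and 62.4 CPM in the right epipodial tentacle, with 10 counts in the head. HDSC00168CG00070 was at 69.4, 74.5, 30.2 and 84.2 CPM in the left and 63.1, 107, 64.5 and 79.996 CPM in the right. The 3 members of this set therefore all kept the epipodial libraries above the head libraries, while the remaining listed gene, HDSC00168CG00010, had a log2 ratio of 1.02 and 1144 head counts.

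In HDSC03198 the members were again 3 of 4 listed genes, and here the head was not silent. HDSC03198CG00010 was at 1301, 1180, 1524 and 1755 CPM in the left and 805, 794, 1654 and 1521 CPM in the right epipodial tentacle, against 13.0 to 448.5 CPM in the head. HDSC03198CG00020 was at 732, 749, 773 and 462 CPM in the left and 497, 476, 770 and 416 CPM in the right, against 3.63 to 175 CPM in the head. Neither member overlapped between the epipodial tentacle and the head. HDSC03198CG00030 was at 303, 204, 263 and 289.5 CPM in the left and 221, 172.5, 352.5 and 259 CPM in the right, and its head values ran from 0 to 185 CPM, so that left cephalic replicate 4 entered the epipodial range. Its log2 ratio fell from 4.25 with all libraries to 1.29 without the sparse ones. The coding length, recovered from the deposited FPKM values and counts, had a median of 736.5 bases over the 150 members, 831 over the 2865 genes and 603 over all genes with a count.

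The design of the study asked how left and right organs differ, and the choice of members did not use the side. Left and right epipodial tentacles were compared with edgeR's quasi-likelihood test on all 5740 genes that passed its filter on low counts, with Benjamini-Hochberg adjustment over these genes. All 150 members entered the test. No member was called at an adjusted p under 0.05, and no gene was (0%). At an unadjusted p under 0.05 there was 1 member, 0.667%, against 0.819% of all genes tested. Both are below the share of 0.05 that a calibrated test gives without any difference, so this unpaired test was conservative. The shares over all genes in the head organs, given below, were under 0.05 as well. The median size of the members' log2 fold change was 0.25, and 83 members were higher on the left and 67 on the right. The test was imprecise: the 95% interval of the difference lay within 2-fold in either direction for 27 members and within 4-fold for 91.

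The member with the smallest p was HDSC06103CG00010. Its level was 30.8, 30.0, 41.1 and 43.2 CPM in the left and 25.2, 20.4, 27.4 and 25.3 CPM in the right epipodial tentacle. The sides did not overlap, with means of 36.3 ± 6.87 and 24.6 ± 2.96 CPM (SD, n = 4). The log2 fold change was 0.78 with a standard error of 0.33 and an adjusted p of 1 in edgeR's quasi-likelihood test. HDSC03084CG00020, next in that direction, had 2565, 2627, 1699 and 1270 CPM on the left and 1909, 2092, 1488 and 977 CPM on the right, overlapping sides and a log2 value of 0.54 ± 0.29 (SE) for left over right. In the opposite direction, HDSC02471CG00020, a silent member described above, had a log2 fold change of -0.96 ± 0.51, with right replicate 2 far above the other libraries. HDSC00211CG00170 was at 15.4, 47.3, 22.2 and 38.2 CPM on the left and 38.9, 89.8, 58.6 and 57.1 CPM on the right, with overlapping sides and a log2 fold change of -0.79 ± 0.43. The adjusted p from edgeR was 1 for each of these members, each of which differed in its direction in 4 of 4 numbers.

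The replicate numbers paired the epipodial libraries, since same-numbered left and right libraries shifted together relative to their groups. With the number as a block in the edgeR fit, 1 of 5740 genes was called (0.0174%), and it was not a member. At an unadjusted p under 0.05 there were 37 of the 150 members, 24.7%, of which 22 were higher on the left and 15 on the right. The same share was 7.58% over all genes tested and 10.3% over the 2865 genes at the members' minimum level. The difference between these shares was not tested, and the members share the same libraries and are not independent. The intervals narrowed with the block, to within 2-fold for 117 members, 78%, and within 4-fold for 149. The smallest adjusted p was 0.105, for HDSC19629CG00010, singled out after its value was seen. This member was at 100.2, 33.3, 8.51 and 5.61 CPM on the left and 336, 51.0, 22.0 and 24.7 CPM on the right, higher on the right in 4 of 4 numbers, and its log2 fold change was -1.23 ± 0.26 (SE). A left-right difference of more than 4-fold was thus outside the interval for all members but HDSC00940CG00070 in the blocked fit, where the interval of this member's log2 fold change ran from -2.55 to 1.24.

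**Figure D5:**
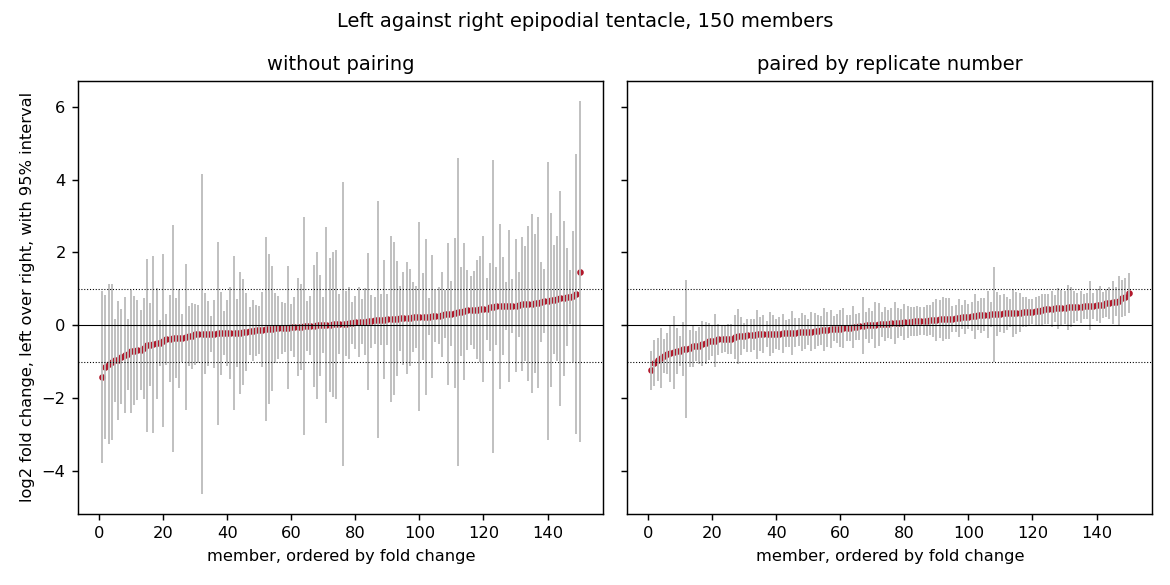
Log2 fold change of the left over the right epipodial tentacle for the 150 members (points, ordered by value within each panel) with its 95% interval from edgeR (bars), unpaired in the left panel and blocked by replicate number in the right panel. Dotted lines mark 2-fold in either direction. The intervals lie within these lines for 27 members without pairing and for 117 with it.

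In the head organs fewer members could be tested, since many had too few counts to pass the filter. In the eyestalk 86 members were among the 4608 genes tested, and neither a member nor another gene was called by edgeR (0%). No member had an unadjusted p under 0.05, against 0.499% of all genes. In the cephalic tentacle 79 members were among the 3935 genes tested and again none was called (0%), with 1 member at an unadjusted p under 0.05, against 0.28% of all genes. That member was HDSC15177CG00010, at 12.2, 681.5, 8.25 and 39.7 CPM on the left and 11.2, 12.9, 0 and 7.92 CPM on the right, where left replicate 2, a sparse library, stood far above the rest. DESeq2 also called no member in any organ. The spread between libraries was larger in the head: edgeR's estimate of the biological coefficient of variation was 1.08 for eyestalks, 0.988 for cephalic tentacles and 0.607 for epipodial tentacles, where the block lowered it to 0.233. The interval of the left-right difference lay within 4-fold for only 4 of the 86 members in the eyestalk and 6 of the 79 in the cephalic tentacle.

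The members had a wider range between replicate numbers than the 2865 genes at their minimum level. With left and right averaged on the log2 scale, the range between the highest and the lowest number in the epipodial tentacle had a median of 2.15 log2 units over the members, against 1.12 over the 2865 genes. The difference between left and right of 1 number, taken as the median over the numbers, had a median of 0.41 log2 units over the members. Over the 2865 genes it was 0.31. The range is a largest gap and this difference is a median, so they are not set against each other. A range above 2 log2 units was found for 79 members, 52.7%, and for 18.2% of the 2865 genes. The coefficient of variation over the 8 epipodial libraries had a median of 61.3%, from 14.4% to 185%, against 36.7% over the 2865 genes. These values come from the same libraries that the choice used, and the numbers are a description without a test.

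The differences between numbers did not all run one way. The highest number was 1 for 67 members (44.7%, against 39.9% of the 2865 genes), 2 for 43 (28.7% against 18.2%), 3 for 15 (10% against 11%) and 4 for 25 (16.7% against 31.0%). The lowest was 1 for 18 members (12.0% against 17.5%), 2 for 17 (11.3% against 19.7%), 3 for 49 (32.7% against 37.0%) and 4 for 64 (42.7% against 25.7%), and 2 members shared it between numbers. In percentage points the shares for numbers 1 and 3 were closer to those over the 2865 genes than the shares for numbers 2 and 4. None of these shares was tested. Both sides had their maximum in the same number in 110 members, 73.3%, and in 63.9% of the 2865 genes. In 15 members, 10%, both epipodial libraries of a number were under 5 CPM while both of another were at 20 CPM or more, which was so for 3.6% of the 2865 genes.

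HDSC09247CG00010 varied most. Its level was 4.66, 2067, 145 and 1.12 CPM in left epipodial replicates 1 to 4 and 5.05, 792, 131 and 2.35 CPM in the right ones, and its head values ran from 0 to 16.2 CPM. The sides thus followed each other across the 4 numbers. HDSC19629CG00010, described above, came next, with replicate 1 highest on both sides. At the other end, HDSC01290CG00040 was at 62.9, 61.4, 54.8 and 43.2 CPM in the left and 58.6, 72.0, 60.7 and 52.9 CPM in the right epipodial tentacle, with a coefficient of variation of 14.4%. It was detected in 3 head libraries, at 9.99 CPM or less, and its log2 ratio of 5.92 was the same with and without the sparse libraries. HDSC01167CG00010 was at 72.2, 50.6, 53.4 and 74.6 CPM in the left and 81.8, 48.0, 62.9 and 73.5 CPM in the right, and at most 18.8 CPM in the head.

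For 2 members the absence of counts followed the replicate number across the organs. They were picked with their values in view, and 14 of the 2865 genes had the property used to find them, which was no count in the 6 libraries of at least 1 number and at least 10 counts in each of the 6 libraries of another. HDSC02634CG00010 was at 64.7 and 94.8 CPM in left and 65.8 and 68.8 CPM in right epipodial replicates 2 and 4, and at 0 in replicates 1 and 3. In replicate 4 it was also at 156 CPM in the left and 176 CPM in the right eyestalk, and at 96.7 CPM in the left and 20.2 CPM in the right cephalic tentacle. In replicate 2 it was at 12.3 CPM in the right eyestalk and 115 CPM in the right cephalic tentacle, and had no count in the left ones, which were sparse libraries. HDSC32840CG00010 was at 132 and 76.3 CPM in left and 179 and 79.4 CPM in right epipodial replicates 1 and 4, and had no count in any organ in replicates 2 and 3. In the head it reached 273 CPM, in left eyestalk replicate 1. In both members the highest head library exceeded the highest epipodial one, and without the sparse libraries the log2 ratios were -1.25 and -1.53. Each had 4 of its 8 epipodial libraries at 0.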

How the data were processed

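Each gene has a raw read count and an FPKM value in each of the 24 libraries. Per the submitters' processing notes, fastp, HISAT2 and HTSeq were used, with no versions. Genome build, annotation and strand handling were not given in the sources used here. Counts were deposited without normalization. The FPKM values deposited by the authors equal the count divided by gene length and library total; the recovered lengths were whole within 0.001 for 100% of genes with a count and divisible by 3 for 99.45%. All entries are genes, and all columns match a labelled library.

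CPM values, medians and ratios were computed in Python 3.11.15 with pandas 2.3.3. The members and lists were chosen with earlier results of these data known. Left and right were compared within each organ's 8 libraries with edgeR 4.0.16 in R 4.3.3 (filterByExpr, TMM factors, robust quasi-likelihood fit, Benjamini-Hochberg adjustment, threshold 0.05). The code was checked on simulated counts with known folds. Those counts had a smaller spread between libraries than the unblocked estimates above, and neither sparse libraries nor shared shifts by replicate number. The check therefore does not give the sensitivity of the test in these data. DESeq2 1.42.0 was an alternative. Intervals are at the 95% level. The total counts of 473072 to 4479096 per library set the precision of low values.

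Identifiers are given for the 2 members at the top and bottom of the ratio and the 2 genes just outside. They are also given for the 2 with the highest epipodial FPKM, head level or level among silent members, the 2 most and least variable members, and up to 2 per direction with the smallest left-right p. Others are said to have been picked with their values in view. Markers and pathway genes could not be matched, and none was tested.

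Pairing by replicate number was checked by correlating left and right deviations from the group means across genes, with a bound of 0.1 for every number. It comes from these correlations, not from a label. Epipodial libraries passed (0.804, 0.777, 0.69 and 0.805 for numbers 1 to 4 over 5832 genes). Eyestalks did not (-0.17 in number 1), nor did cephalic tentacles (-0.289 in number 1).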

Additional observations from a re-analysis of the deposited data

Results flagged for a closer look

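For a library that stood apart by Dixon's criterion at the 95% level, 116 sets of 4 libraries were examined. They were the groups in which a member given by identifier had at least 10 counts in a library, and the 6 groups for the members' share of all counts. Chance singles out about 1 in 20 groups of unselected, normally distributed values, and 22 stood out here. The members were chosen for low head medians, and some were named for their variability, so nothing is read from this number. The sets share libraries and are not independent.

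In the epipodial tentacle, HDSC06269CG00010 reached 38930 CPM in left replicate 3. HDSC09247CG00010 reached 2067 CPM in left and 792.1 CPM in right replicate 2. HDSC19629CG00010 reached 336.2 CPM in right replicate 1. HDSC03198CG00020 was lowest in left replicate 4, at 461.8 CPM.

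In the eyestalk, replicate 3 stood out for HDSC06269CG00010 on the right (47746 CPM), for HDSC03198CG00020 on the right (157.5 CPM) and for HDSC01290CG00040 on the left (9.99 CPM, with 0 in the other libraries). Left replicate 1 stood out for HDSC16768CG00010 (639.5 CPM) and HDSC01167CG00010 (6.907 CPM). Right replicate 4 stood out for HDSC03928CG00010 (11.25 CPM), HDSC01450CG00050 (223.5 CPM), HDSC00681CG00030 (167.2 CPM), HDSC02634CG00010 (176.4 CPM) and HDSC32840CG00010 (121.7 CPM). Left replicate 4 stood out for HDSC02634CG00010 (156.1 CPM).

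In the cephalic tentacle, right replicate 1 stood out for HDSC01450CG00050 (259.1 CPM), HDSC00681CG00030 (84.4 CPM), HDSC32840CG00010 (227.6 CPM) and HDSC03198CG00030 (82.8 CPM). HDSC06269CG00010 reached 14520 CPM in right replicate 3, and HDSC02634CG00010 reached 96.68 CPM in left replicate 4. Of the head libraries named here, left eyestalk replicate 3 and right cephalic replicate 3 were among the sparse ones, and the others were among the fuller ones.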

How the results depend on the processing

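The number of genes passing the choice, 162 as reported, depended on most settings. It was 85 with CPM scaled by TMM factors, 87 with RLE factors, 57 without the 8 sparse head libraries, 101 with a minimum of 50 CPM and 97 with means in place of medians. It was 182 with a pseudocount of 0.1, 226 with a minimum of 10 CPM and 230 with FPKM in place of CPM. Leaving out 1 replicate number at a time in all groups gave 84 to 291, the lowest without replicate 2 and the highest without replicate 4, and 72 to 105 of the 150 members were kept. TMM factors moved the median log2 ratio of the 2865 genes from 0.41 to 0.06, and of the members from 2.74 to 2.28; RLE factors moved them to -0.01 and 2.32. No member's direction reversed under either, but 35 were at or under 1-fold without the sparse libraries.

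Silent genes among those chosen numbered 3 as reported, 2 to 4 under the scalings, FPKM and omissions, 4 with up to 3 head counts allowed, and 11 when silence meant a median of 0 in both head organs. Genes chosen anew under each setting with all epipodial libraries above all head libraries were counted as well. They numbered 26 as reported, and 19 to 28 under the other scalings, FPKM and the omission of the sparse libraries. Without 1 replicate number they numbered 29 to 44, where the chosen genes changed and fewer libraries have to be separated.

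The left-right counts of called members stayed at 0 in each organ under RLE factors, DESeq2, no filter on low counts, a fit of all 24 libraries, the replicate block and the omission of each library in turn. They were also 0 in the head organs without their sparse libraries, a setting added after seeing the data that leaves 2 libraries per side. The replicate block changed no call of a member. Low counts of the members limit the tests in the head, where 86 of 150 could be tested in eyestalks and 79 in cephalic tentacles.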
